A study of Sus scrofa with 5 samples.

Results

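The transcripts described here had very high deposited values at 1 or more stages of the tooth germ and were above 0 at every stage sequenced. They were selected on their FPKM, the number of fragments of a transcript divided by its exon length in kilobases and scaled to the mapped fragments of the library. FPKM had to be above 0 at E50, E60 and E70, 1000 or more at 1 or more stages, and more than 3 times higher at the highest stage than at the lowest. Of 45614 transcripts in the deposited table, 546 (1.2%) met these criteria. Because the stage values themselves chose the 546, their levels and the order of their stages are given as a description and without a test.

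The libraries came from additional molar germs with the dental lamina still attached, dissected from the mandibles of wild-type miniature pig embryos. The 3 groups were embryonic day 50 (E50, 1 labelled sample), embryonic day 60 (E60, 1 labelled sample) and embryonic day 70 (E70, 3 labelled samples), and RNA was pooled before sequencing. For each transcript the table gave 1 value per stage, which was used as the authors' value, so no spread between replicates could be estimated. The table paired no transcript with a gene symbol, so the tissue label could not be checked against marker genes and transcripts are named by their identifier and their position on the WZSP (Wuzhishan pig) scaffolds.

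Additional molars are the teeth that form without a deciduous predecessor, from a dental lamina that keeps growing towards the back of the jaw. Each germ passes from a bud to a cap and then a bell, during which epithelium and mesenchyme signal to each other before enamel and dentin are laid down. In whole germs, fewer cells of a type and less RNA per cell cannot be told apart. With 1 value per stage, a difference between stages also cannot be told apart from a difference between libraries. The study reports mapping ratios and numbers of assembled transcripts that differed between the stages.

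Of the 45614 transcripts, 2135 reached 1000 FPKM at 1 or more stages. Most of these, 1559, were listed at 0 at 1 or 2 stages and so were not selected. The remaining 576 were above 0 at all 3 stages, and only 30 of them varied 3-fold or less. The 546 selected transcripts made up 4.83% of the 11301 transcripts above 0 at all stages. Very abundant transcripts with a similar FPKM at E50, E60 and E70 were thus few in this table. Small ratios were also uncommon among all 11301, where the lower quartile of the ratio of highest to lowest FPKM was 5.64. Few such transcripts is therefore not a trait of the very abundant ones alone.

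The limits themselves divided transcripts with close values. Just inside the minimum were TCONS_00086741, with 116, 267 and 1004 FPKM at E50, E60 and E70, TCONS_00177005 (1004, 15.7 and 495) and TCONS_00922992 (12.9, 1015 and 212). Just outside it were TCONS_00288909, with 108, 1.05 and 999 FPKM, TCONS_00623264 (397, 10.4 and 997) and TCONS_00715197 (655, 1.23 and 993). The smallest ratios of highest to lowest FPKM among those selected were 3.07 for TCONS_00776412 (1372, 447 and 703 FPKM), 3.26 for TCONS_00592094 (3429, 1163 and 1052) and 3.32 for TCONS_01091429 (1146, 3808 and 2469). The largest ratios left out were 2.99 for TCONS_01194238 (2854, 961 and 2871 FPKM), 2.98 for TCONS_00169199 (3278, 1204 and 3586) and 2.97 for TCONS_00556451 (7294, 3612 and 10721).

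The median FPKM of the 546 transcripts was 1638, 133 and 2351 at E50, E60 and E70. The quartiles were 608 and 5600 at E50, 27.1 and 620 at E60, and 1145 and 7462 at E70. E60 was thus the stage with the lowest values, and 81 of the 546 were under 10 FPKM there, against 24 at E50 and 13 at E70. FPKM reached 1000 for 362 of them at E50, for 100 at E60 and for 443 at E70. It did so at all 3 stages for 49 transcripts, at 2 stages for 261 and at 1 stage for 236. Among the 261, the pair of stages was E50 and E70 for 240, E60 and E70 for 19, and E50 and E60 for 2. Among the 236, the single stage was E70 for 135, E50 for 71 and E60 for 30.

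Their standing at E60 depended on how rank was counted. Their median ranks were 803, 1696 and 997 at E50, E60 and E70, and 342, 212 and 273 of them, respectively, were among the 1000 highest. As percentiles the median ranks were 96.1, 95.5 and 94.9, but the lists differed in length, with 20727 transcripts above 0 at E50, 37539 at E60 and 19392 at E70, so neither ranks nor percentiles can be compared directly between stages. In total, 55 of the 546 were under the median of all transcripts above 0 at E60, 10 at E50 and 5 at E70. The same limit applies to these counts. High FPKM values were also rarer in the whole table at E60: 305 transcripts reached 1000 there, against 1051 at E50 and 1584 at E70. Among the 11301 transcripts above 0 at all stages, the 95th percentile was 514, 169 and 747 FPKM at E50, E60 and E70, whereas the median was 1.86, 6.82 and 1.46. The upper end of the E60 values was therefore lower, and their middle higher, than at the stages on either side.

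The selected transcripts held 52.1% of the FPKM summed over all 45614 transcripts at E50, but 27.0% at E60 and again 51.9% at E70. A single one of them, TCONS_00291509, held 32.6%, 10.4% and 40.1% of these sums. With it left out of both sides, the share of the other selected transcripts was 28.9%, 18.5% and 19.6% at E50, E60 and E70. The very abundant transcripts listed at 0 at 1 or 2 stages held 46.4%, 46.2% and 47.0%, and the 30 that varied 3-fold or less held 0.169%, 2.43% and 0.109%. The FPKM sums at E50 and E70 thus lay mostly in very abundant transcripts that varied more than 3-fold or were listed at 0 at a stage.

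Ordered by their 3 values, 449 of the 546 transcripts (82.2%) were lowest at E60, 76 at E50 and 21 at E70. Among all 11301 transcripts above 0 at all stages, 28.8% were lowest at E60, 27.8% at E50 and 43.4% at E70. The highest value was at E70 for 304 of the selected transcripts, at E50 for 201 and at E60 for 41. Among the 11301, 22.1% were highest at E70, 20.8% at E50 and 57.1% at E60. The most frequent order was E60 below E50 below E70 (262 transcripts, 47.99%, against 15.55% of the 11301). Next came E60 below E70 below E50 (187, 34.25%, against 13.26%). FPKM rose from E50 through E60 to E70 for 42 transcripts (7.69%), close to the 6.51% of the 11301. It fell through both steps for 14 (2.56%, against 7.55%). The remaining orders had their peak at E60. Of these transcripts, 34 (6.23%, against 21.3%) had the lowest value at E50 and 7 (1.28%, against 35.8%) had it at E70.

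These orders depended on how the stages were scaled. With the same 546 transcripts after quantile normalization, which gives all stages the same distribution, 353 were lowest at E60, 108 at E50 and 85 at E70, and 117 were highest at E60. With median scaling, which multiplies the values of a stage so that the 11301 transcripts have equal medians, 478 were lowest at E60 and 26 were highest there. The matching shares of the 11301 after scaling are not given, so these counts cannot be set against all transcripts. Quantile normalization also moved the 11301, of which 50.7% were then lower more than 3-fold at E60 than at E50 and 17.4% higher. From E60 to E70, 50.0% of the 11301 were then higher more than 3-fold and 17.3% lower. When the transcripts were chosen again after quantile normalization, 654 were found, 407 of them among the 546. Of these 654, 284 (43.4%) were lowest at E60 and 331 (50.6%) were highest at E60, so the most frequent peak moved to E60 under that choice. Median scaling gave 732 transcripts, 528 of them among the 546, with 667 (91.1%) lowest at E60.

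The comparisons between stages entered the selection and are given beside all transcripts only for scale. Between E50 and E60, 426 of the 546 transcripts (78%) were lower more than 3-fold at E60 and 62 (11.4%) were higher more than 3-fold. Over the 11301 transcripts above 0 at all stages, 24.6% were lower and 48.4% were higher by the same measure. After quantile normalization the split of the 546 was 319 lower and 92 higher, and after median scaling it was 469 lower and 43 higher. Among the 11301, quantile normalization reversed the split, with 50.7% lower and 17.4% higher at E60, and median scaling gave 39.2% lower and 30.0% higher. After quantile normalization, transcripts lower at E60 thus outnumbered those higher both among the 546 and among the 11301. As shares of the 546, the counts under that scaling lay much closer to the shares of the 11301 than in the deposited values.

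Between E60 and E70, 470 of the 546 (86.1%) were higher more than 3-fold at E70 and 42 (7.69%) were lower. Over the 11301, 24.7% were higher and 51% lower. After quantile normalization the counts were 299 higher and 87 lower, against 50.0% higher and 17.3% lower over the 11301. As shares of the 546, these counts were close to the shares of the 11301. After median scaling the counts were 497 and 23, against 40.4% and 30.6%. Between E50 and E70, 160 of the 546 (29.3%) were higher more than 3-fold at E70 and 78 (14.3%) were lower, against 16.8% and 24% over the 11301. This last split turned to 82 higher and 131 lower after quantile normalization, against 7.71% and 8.74% over the 11301. After median scaling it was 209 and 61, against 20.5% and 19.4%, so no direction between E50 and E70 held for the 546 under every scaling. FPKM at E50 and E70 lay within 3-fold of each other for 308 of them (56.4%), against 59.3% of the 11301.

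On the log2(FPKM + 1) scale, the median change of the 11301 transcripts from E50 to E60 was 0.88 and that of the 546 was -4.09, a difference of -4.97. After quantile normalization the median change of the 11301 was -1.13 and the difference was -1.52, and after median scaling they were -0.23 and -5.70. From E60 to E70 the 11301 had a median change of -0.95, and the 546 one of 4.70, a difference of 5.65. Quantile normalization reduced this difference to 1.02, and median scaling raised it to 6.67. The 546 lay below all transcripts in the E50 to E60 change and above them in the E60 to E70 change in each case, but by an amount that varied several-fold with the scaling.

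The highest FPKM of the table at E50 and at E70 was that of TCONS_00291509 on scaffold 188 (567440 to 569240), with 14600000, 325013 and 35700000 at E50, E60 and E70. It ranked 1, 2 and 1 among all transcripts at these stages, and its FPKM was 110 times higher at E70 than at E60. The other transcript of its locus had 2.84, 455 and 1353 FPKM. TCONS_00939026 on scaffold 607 (7830380 to 7837472) had 2980000, 9314 and 4440000 FPKM. It ranked 2, 31 and 4 at E50, E60 and E70, in lists of different length. These were the only selected transcripts over 1000000 FPKM at any stage.

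By the definition of FPKM, the value multiplied by the effective length of a transcript gives its share of all fragments, which cannot exceed the whole library. If the deposited values were not rescaled after that division, the value of TCONS_00291509 allowed an effective length of at most 68.5, 3077 and 28.0 bases at E50, E60 and E70. The effective length is the transcript length less an allowance for the size of the sequenced fragments. Over the whole table, the summed FPKM allowed a mean effective length, weighted by FPKM, of at most 22.3, 321 and 11.2 bases at E50, E60 and E70. The table holds no transcript lengths or read counts, so the number of fragments behind each value is unknown, and values of this size cannot be read as numbers of RNA molecules.

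The 10 highest transcripts were all lowest at E60 in the deposited values, while their highest stage was E50 or E70. TCONS_00363499 on scaffold 216 (2855683 to 2863600) had 861853, 4034 and 97093 FPKM at E50, E60 and E70, and TCONS_00342040 on scaffold 21 (520645 to 532072) had 518969, 3974 and 356927. TCONS_00415168 on scaffold 24 (2147598 to 2148992) had 134036, 210 and 193924, the largest ratio (922) among the 10 highest. All 3 were lowest at E60. Smaller ratios were found for TCONS_01093836 on scaffold 812 (448232 to 449529), with 93020, 18344 and 457852 FPKM, and for TCONS_00944375 on scaffold 607 (8658899 to 8662876), with 88930, 31486 and 324191. Together with TCONS_00291509, these had the highest FPKM at their lowest stage. The change of TCONS_01093836 from E50 to E60 and both changes of TCONS_00944375 had the opposite sign after quantile normalization, so that the latter peaked at E60. TCONS_01093836 ranked 43, 22 and 14 at E50, E60 and E70, and TCONS_00944375 ranked 45, 9 and 22. The ranked lists differed in length, so these ranks cannot be compared directly between stages. TCONS_00537956 on scaffold 298 (4492796 to 4507392) had 65055, 3899 and 247802 FPKM.

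The ratio of highest to lowest FPKM had a median of 58.7 over the 546 transcripts (quartiles 17.4 and 225) and exceeded 100 for 197 of them and 10000 for 5. Over the 11301 transcripts above 0 at all stages, the median ratio was 18.4. Some of the largest ratios belonged to transcripts with less than 1 FPKM at E60. TCONS_00184990 on scaffold 144 (5298963 to 5354570) had 7558, 0.276 and 13986 FPKM at E50, E60 and E70, and ranked 316, 34980 and 302 in the table. The corresponding FPKM values were 1237, 0.032 and 271 for TCONS_00294517 on scaffold 188 (11612626 to 11618931) and 1720, 0.0742 and 1802 for TCONS_00207264 on scaffold 152 (2649728 to 2667895). Their loci were not silent at E60: the other transcripts of the locus summed to 313, 1407 and 136 FPKM at that stage. TCONS_00441447 on scaffold 253 (1345015 to 1350943), with 1759, 0.232 and 173 FPKM, held all the FPKM of its locus at E50 and E70, and the other transcript, listed at 0 at both, had 36.8 FPKM at E60.

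The largest ratio among the 546 came with a low value at E50. TCONS_00697467 on scaffold 402 (1450439 to 1451775) had 0.00182, 6.98 and 1168 FPKM at E50, E60 and E70, and so rose through both steps. TCONS_00457629 on scaffold 259 (6633707 to 6639061) also rose, with 0.198, 1192 and 2902 FPKM, while the other 3 transcripts of its locus together had 49315, 621 and 25289. TCONS_00457629 fell from E60 to E70 after quantile normalization. In the deposited values, the locus as a whole was lowest at E60 although this transcript was lowest at E50.

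A peak at E60 was found for 41 transcripts. TCONS_00948260 on scaffold 617 (829110 to 830202), the only transcript of its locus, had 0.935, 7742 and 4.13 FPKM at E50, E60 and E70, and TCONS_01176101 on scaffold 951 (96531 to 98541), also alone at its locus, had 0.467, 2033 and 0.751. TCONS_01113073 on scaffold 851 (36055 to 44993) had 0.274, 1483 and 440, and its fall from E60 to E70 turned to a rise after median scaling. Peaks at E60 thus also occurred at loci with a single transcript in the table, and 8 of the 34 transcripts with the order E50, E70, E60 from low to high were alone at their locus.

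The lowest value was at E70 for 21 transcripts. TCONS_01018358 and TCONS_01017501, both on scaffold 696 (2265516 to 2276093), had 4437, 150 and 1.83 FPKM and 2642, 184 and 1.36 FPKM. At the same locus, TCONS_01018686 had 40786, 599 and 10732 FPKM and held 72.3% of the FPKM of the locus at E50, but 42.1% at E60 and then 99.97% at E70. TCONS_01087498 on scaffold 81 (3845359 to 3849956) had 6.29, 2655 and 1.99 FPKM beside TCONS_01091429 at the same locus, which had 1146, 3808 and 2469. After median scaling, TCONS_01091429 was lowest at E60 instead of highest. In the deposited values, transcripts of 1 locus could thus follow different orders while all were selected.

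The selected transcripts lay at 455 of the 18696 loci of the table, on 255 scaffolds and contigs. A single selected transcript was found at 385 loci, 2 at 57 loci, 3 at 11 loci, 6 at 1 locus and 8 at 1 locus. Scaffold 14 held 14 of them at 10 loci, of 193 loci of the table on that scaffold, and scaffold 190 held 10 at 7 of 168 loci. These scaffolds held the most selected transcripts but not the largest share of loci, since scaffold 222 held 4 at 4 of 12 loci. In total, 21 of 17406 pairs of consecutive loci on a scaffold both held selected transcripts, with a median gap of 18710 bp. Clustering of the selected transcripts was not tested.

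Locus span was not used in the selection. The loci of the 546 transcripts spanned a median of 16762 bp, introns included (quartiles 6309 and 41873, range 471 to 744256). The 10725 transcripts above 0 at all stages that stayed under 1000 FPKM had a median span of 36509 bp, and the 30 very abundant transcripts that varied 3-fold or less had 4566 bp. The 1559 very abundant transcripts listed at 0 at 1 or 2 stages had a median span of 32676 bp. Loci under 5000 bp held 20.0% of the 546 transcripts, 7.87% of the 10725 and 53.3% of the 30. Transcripts of short loci were thus more frequent among the 546 than among the less abundant transcripts, and more frequent still among those with little change, differences that were not tested. FPKM divides by length, so level and span are not independent measures. The share of transcripts lowest at E60 differed with span: 15 of 27 at loci under 2000 bp (55.6%), 63 of 82 from 2000 to 5000 bp (76.8%), 157 of 191 from 5000 to 20000 bp (82.2%) and 214 of 246 at longer loci (87.0%). Over the 11301 transcripts above 0 at all stages, the shares in the same span classes were 44.7%, 33.2%, 31.8% and 26.7%. From the shortest class to the longest, the median FPKM of the 546 was 1025, 2383, 2308 and 1235 at E50. At E60 it was 976, 482, 190 and 62.7, and at E70 it was 1977, 2544, 2699 and 2015. The medians at E60 thus decreased with span, whereas those at E50 and E70 did not follow it, and all of these values entered the selection.

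Most selected transcripts shared their locus. Of the 546 transcripts, 519 had at least 1 other transcript at the locus, and the median number of transcripts per locus was 4. Cufflinks divides the reads of a locus among its transcripts, so the values of transcripts at 1 locus depend on each other. Among the 519, the selected transcript held a median of 87.2% of the FPKM of its locus at E50, but 40.7% at E60 and again 84.7% at E70. For the 10725 less abundant transcripts, at loci with more than 1 transcript, the medians were 28.6%, 21.9% and 24.9%. The selected transcript was the highest of its locus for 357 of the 519 at E50 (68.8%), 262 at E60 (50.5%) and 354 at E70 (68.2%). It led at all 3 stages for 184, and at E50 and E70 but not at E60 for 124. High FPKM at a stage was itself a criterion, so these counts partly follow from the selection.

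The total of the locus, with the selected transcript included, was lowest at E60 for 458 of the 546 transcripts, of which 427 were themselves lowest at E60. After quantile normalization this count was 316, and after median scaling 504. The shares of all loci after these scalings are not given, so the scaled counts cannot be set against the whole table. By locus and in the deposited values, 383 of the 455 totals (84.2%) were lowest at E60. The share was 34.4% among the 8725 loci of the table with totals above 0 at all stages. Without the selected transcript, the other transcripts of the locus summed to a median of 261, 150 and 537 FPKM at E50, E60 and E70. Their sum was lowest at E60 for 241 of 517 transcripts (46.6%), at E50 for 153 and at E70 for 102, with ties for the rest, after 2 transcripts whose partners were listed at 0 throughout were left out. For 9166 less abundant transcripts the corresponding share was 31.7%. The stage values of the selected transcripts and hence their totals entered the selection, and the partners include selected transcripts, since 161 of the 546 lay at the 70 loci with 2 or more of them.

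The nearest locus without a selected transcript on the same scaffold, at a median distance of 6300 bp, was also examined. Of 433 such loci, 232 had totals above 0 at all stages, and 75 of these (32.3%) were lowest at E60. Their median totals were 9.70, 31.4 and 9.15 FPKM at E50, E60 and E70, whereas those of the 455 loci with selected transcripts were 2374, 312 and 3665. The median total of the 8725 loci was 6.83, 26.3 and 7.23. In the deposited values, the neighbouring loci and the 8725 loci thus both had their highest median at E60.

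The locus with the most selected transcripts lay on scaffold 325 (2682036 to 2698797), where 8 of 17 transcripts were selected. The highest was TCONS_00590960, with 171956, 5687 and 21018 FPKM at E50, E60 and E70, followed by TCONS_00592505 with 92999, 11618 and 114943. TCONS_00592509 (35361, 361 and 6121 FPKM), TCONS_00592510 (17164, 768 and 4167) and TCONS_00590963 (4298, 33.3 and 283) were also lowest at E60. In contrast, TCONS_00592094 (3429, 1163 and 1052), TCONS_00592093 (2588, 921 and 306) and TCONS_00590455 (2260, 479 and 37.2) fell through both steps. After quantile normalization, the change from E50 to E60 turned to a rise for TCONS_00592505, TCONS_00592094, TCONS_00592093 and TCONS_00590455, and that from E60 to E70 turned to a fall for TCONS_00590960, TCONS_00592505 and TCONS_00592510. After median scaling, TCONS_00592094 and TCONS_00592093 rose from E60 to E70. The largest transcript of the locus at E50 and E60, TCONS_00590959, had 442438 and 127530 FPKM at these stages and was listed at 0 at E70, so it was not selected. Among the 8, the FPKM at E60 ranged from 33.3 to 11618, and none held more than 6.38% of the locus at that stage.

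On scaffold 161 (1919525 to 1951705), 6 of 7 transcripts were selected. TCONS_00232886 had 72367, 8653 and 31855 FPKM and held 39.5%, 73.3% and 31.9% of the locus. TCONS_00232885 (39028, 188 and 42468 FPKM) and TCONS_00229282 (37868, 4.21 and 7982) had similar FPKM at E50 but differed widely at E60. TCONS_00232887 had 10309, 631 and 3294 FPKM, TCONS_00231260 had 6818, 1320 and 2037, and TCONS_00231261 had 3702, 1016 and 522. All but TCONS_00231261 were lowest at E60, and the seventh transcript, TCONS_00231871, had 13142 FPKM at E50 and 11723 at E70 and was listed at 0 at E60. After quantile normalization, the fall from E50 to E60 became a rise for TCONS_00232886, TCONS_00231260 and TCONS_00231261, and the rise from E60 to E70 became a fall for TCONS_00232886, TCONS_00232887 and TCONS_00231260. After median scaling, TCONS_00231261 rose from E60 to E70.

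Of the 11 loci with 3 selected transcripts, the one with the largest summed FPKM of these lay on scaffold 607 (8658899 to 8662876), where all 3 transcripts were selected. TCONS_00944374 had 111185, 2941 and 89505 FPKM, TCONS_00944375 had 88930, 31486 and 324191, and TCONS_00937894 had 1465, 507 and 2691. The leading transcript of this locus was TCONS_00944374 at E50 and TCONS_00944375 at E60 and E70, where the latter held 90.1% and 77.9% of the FPKM. After quantile normalization, TCONS_00944375 and TCONS_00937894 rose from E50 to E60 and fell from E60 to E70, so their low at E60 became a peak.

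Only 27 of the 546 transcripts (4.95%) were alone at their locus, against 13.5% of the 10725 less abundant transcripts and 17.9% of the whole table. The share was 4.81% among the 1559 very abundant transcripts listed at 0 at 1 or 2 stages, close to that of the 546. The table holds only assembled transcripts that passed the authors' filter on exon number, so whether such a transcript shared reads with transcripts filtered out was not tested. Of the 27, 14 were lowest at E60, 11 at E50 and 2 at E70, and 10 were highest at E60. The share lowest at E60 (51.9%) was smaller than the 82.2% of all 546, whereas 26.2% of the 1483 transcripts above 0 at all stages that were alone at their locus were lowest at E60. After quantile normalization, 11 of the 27 were lowest at E60, and after median scaling 17. The matching shares of the 1483 after scaling are not given, so these counts have no share of all lone transcripts beside them. Their median FPKM was 1004, 412 and 1385 at E50, E60 and E70.

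The highest of these lone transcripts, chosen after their values were seen, followed different orders. TCONS_00753918 on scaffold 436 (1990345 to 1995198) had 83232, 5102 and 63538 FPKM at E50, E60 and E70. TCONS_01087407 on scaffold 81 (2912159 to 2918098) had its peak at E60, with 4810, 58210 and 6637 FPKM, and TCONS_01148693 on scaffold 93 (9725516 to 9728148) rose through both steps, with 17.0, 4383 and 31797. TCONS_00669496 on scaffold 386 (762553 to 763576) and TCONS_00414865 on scaffold 24 (2875655 to 2879283) were lowest at E60, with 15214, 412 and 19880 FPKM and 4786, 116 and 8651 FPKM. After quantile normalization, the changes of TCONS_00753918 and TCONS_01148693 from E60 to E70 changed sign.

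Loci under 1000 bp held 5 of the 546 transcripts. The shortest, on scaffold 617 (1380974 to 1381444), spanned 471 bp and held TCONS_00948921 alone, with 148, 7592 and 228 FPKM at E50, E60 and E70. TCONS_01133341 on scaffold 899 (726940 to 727598) had 112, 26.1 and 1977 FPKM, and TCONS_00012412, which lay on an unplaced contig and spanned 671 bp, had 6282, 194 and 918. Each was highest at a different stage, so the shortest loci shared no order. The rise of TCONS_00012412 from E60 to E70 became a fall after quantile normalization.

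Long intergenic non-coding RNAs (lincRNAs) are transcripts between genes without a recognizable coding sequence, some of which act on chromatin or on neighbouring genes. Of the 450 transcripts that the study lists as lincRNAs, 385 were above 0 at all stages and 85 (18.9%) were among the 546, of which they made up 15.6%. Listed lincRNAs made up 0.987% of all transcripts and 2.80% of the 10725 less abundant transcripts. Their share was 0.706% among the 1559 very abundant transcripts listed at 0 at 1 or 2 stages. The study chose that list on the changes between these same stages, so the overlap is not independent of the selection. Of the 85, 79 were lowest at E60 (92.9%) and 6 at E50, compared with 370 of the 461 transcripts off the list (80.3%). The highest value was at E70 for 55 of the 85, at E50 for 28 and at E60 for 2. Their median FPKM was 1501, 37.1 and 2229 at E50, E60 and E70, and that of the 461 others was 1666, 178 and 2422. These differences were not tested, and the choice of the list on changes that involve E60 bears on them as well.

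The highest of these lincRNAs was TCONS_00831795 on scaffold 484 (207231 to 209381), with 199613, 774 and 47558 FPKM at E50, E60 and E70. It held 85.9% of its locus at E50 but 15.3% at E60 and 36.1% at E70. TCONS_00089104 on scaffold 114 (7663654 to 7669194) had 34473, 241 and 50979 FPKM and held most of its locus at each stage (99.95%, 67.6% and 98.8%). TCONS_01018686 on scaffold 696, described above with its locus, belonged to the same list. TCONS_00670646 on scaffold 388 (1494639 to 1866481) had 8379, 86.7 and 39468 FPKM, and TCONS_00776993 on scaffold 448 (4202011 to 4231134) had 34135, 119 and 3024. All 5 were lowest at E60, but their highest stage differed, E50 for 3 of them and E70 for the other two.

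The study pairs 12 lincRNAs with a neighbouring gene by symbol, and 3 of these lincRNAs were among the 546, whereas none of the paired gene transcripts was. The study lists the pairs as negatively correlated, so opposite courses within a pair are not independent of that list. TCONS_00978370 on scaffold 66 (7208993 to 7213190) lay 9546 bp from NFE2L2, which encodes a transcription factor of the antioxidant response. The lincRNA had 3450, 3.24 and 2854 FPKM at E50, E60 and E70, against 0.674, 40.7 and 0.479 for the NFE2L2 transcript. The share of this lincRNA in its locus was 76.9%, 0.219% and 4.10%. TCONS_00985422 at the same locus reached 58625 FPKM at E70. TCONS_01005398 on scaffold 685 (421658 to 447914) lay 2645 bp from ADAT1, which encodes an adenosine deaminase of tRNA, and had 1501, 1.71 and 890 FPKM, against 0.213, 9.48 and 0.341 for the ADAT1 transcript. A further selected transcript of that locus, TCONS_01008393, chosen after its values were seen, had 1938, 1.42 and 1749 FPKM. TCONS_01102902 on scaffold 834 (250159 to 263866) lay 171 bp from SAMD4B, which encodes an RNA-binding protein of the Smaug family, and had 17916, 493 and 14287 FPKM, against 1.21, 18.4 and 0.992 for the SAMD4B transcript. The total of the SAMD4B locus was 63.5, 29.5 and 69.0 FPKM, lowest at E60 like the lincRNA, whereas the totals of the NFE2L2 locus (0.674, 90.3 and 0.479) and the ADAT1 locus (2.03, 38.1 and 1.69) were highest at E60. At E60 the lincRNA thus exceeded its paired gene transcript beside SAMD4B but not beside NFE2L2 or ADAT1.

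Other selected transcripts, chosen after their values were seen, shared a locus with members of these pairs. TCONS_00595608 on scaffold 331 (1657368 to 1666300), which rose from E50 to E60 after quantile normalization, had 1193, 400 and 77.3 FPKM at E50, E60 and E70, at the locus of AP2M1, which encodes a subunit of the AP-2 clathrin adaptor. The AP2M1 transcript itself, TCONS_00596741, had 20.8, 205 and 15.9, and the total of the locus was 2017, 938 and 4947. TCONS_00656330 on scaffold 37 (2090903 to 2249703) had 1191, 138 and 4143 FPKM at the locus of the lincRNA beside GGPS1, which encodes a geranylgeranyl diphosphate synthase. That lincRNA, TCONS_00656338, had 396, 0.721 and 537 FPKM, so the selected transcript kept the order of stages of the lincRNA with a shallower low at E60.

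The table carried a status of too little data, which Cuffdiff gives to loci too complex or too shallowly covered for its test, for 107 of the 546 transcripts (19.6%). The same status was found for 1.89% of the 11301 transcripts above 0 at all stages and for 30.1% of the 1559 very abundant transcripts listed at 0 at 1 or 2 stages. Transcripts with that status had a median of 5709, 233 and 7038 FPKM at E50, E60 and E70, higher than the 1348, 112 and 1975 of the other 439. Of the 107, 95 were lowest at E60 (88.8%), and of the 439, 354 (80.6%). The marked transcripts thus had the higher medians, and most transcripts with or without it were lowest at E60.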

How the data were processed

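The authors pooled RNA from additional molar germs at each stage, aligned reads to the WZSP assembly with TopHat and assembled, merged and quantified transcripts with the Cufflinks tools; the submitters' processing notes name Cufflinks 1.0.3, whereas the study's methods name a later version. The authors deposited FPKM values from Cuffdiff in a table whose fold-change, p-value and q-value columns hold their own comparisons and were not used. The larger value was taken where rows of a stage differed, which occurred for 0 of the 546 transcripts. The methods name quantile normalization, but the deposited values differ in their quantiles, so they were used as deposited, and changes were computed on log2(FPKM + 1), which understates changes of low values. No test was made. The selection rule and the lists used were chosen with earlier results of these data known. Transcripts were named by rule: the 10 highest; the 3 largest ratios for each highest and each lowest stage; the 3 highest at their lowest stage; 3 on each side of each limit; the 3 loci with most selected transcripts, ties taken by summed FPKM; the 3 shortest loci; the 5 highest listed lincRNAs; and members of the gene pairs. Locus starts count from 1. The selection, scalings and locus sums were run on simulated data as a check of the code. There all transcripts were above 0, and only those made to be selected reached the minimum. The criteria on zeros and on the ratio were therefore not challenged. Alternatives with the 546 fixed, or without the status of too little data, were chosen after seeing the data. Python 3.11.15, numpy 2.4.6 and pandas 2.3.3 were used. Whole-read steps could not be resolved without transcript lengths, so the number of fragments behind each value is unknown. Sequences were not used here.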

Additional observations from a re-analysis of the deposited data

How the results depend on the processing

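The table gives 1 value per stage and no read counts, so neither the spread nor limits set by the number of fragments could be computed, and no paired analysis was possible because no result comes from a test. Of the 546 transcripts, 449 were lowest at E60, and the share lowest at E60 stayed between 80.1% and 83.5% with a minimum of 500 or 2000 FPKM, a ratio over 2 or over 5, or at least 1 FPKM at every stage. It was 43.4% when the transcripts were chosen again after quantile normalization.

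The following counts moved by more than 1.5 times, and the cause was not tested. With a minimum of 500 FPKM, 77 transcripts were highest at E60 and 188 reached the minimum at E60. With a minimum of 2000 FPKM, 24 were highest at E60, 198 at E70, 56 reached the minimum at E60 and 3 lay at loci under 1000 bp. Chosen again after quantile normalization, 284 were lowest and 331 highest at E60, and 91 were highest at E70. Chosen again after median scaling, 12 were highest at E60, 533 at E70 and 50 reached the minimum at E60. With FPKM summed per locus, where loci are the units, 1484 were selected, 1131 of them lowest at E60, 387 highest at E50, 68 at E60 and 1029 at E70. With the 546 fixed, 117 were highest at E60 and 160 at E70 after quantile normalization, and 26 were highest at E60 after median scaling, alternatives chosen after seeing the data. Without the 107 transcripts with the status of too little data, no count moved by more than 1.5 times.

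Of 120 changes of the 60 named transcripts, 13 moved by 1 log2 unit or more with a pseudocount of 0.1, by up to 3.13, a choice that cannot change their sign. Quantile normalization changed the sign of 26, of which 18 had been more than 3-fold and 8 had been 3-fold or less. Median scaling changed the sign of 7, of which 3 had been more than 3-fold and 4 had been 3-fold or less. The values below are those of the changes of more than 3-fold. From E50 to E60, the log2 change after quantile normalization was 1.39 for TCONS_01093836, 0.87 for TCONS_00776412, 1.05 for TCONS_00592505, 0.30 for TCONS_00590455, 0.98 for TCONS_00232886, 0.65 for TCONS_00231260 and 0.98 for TCONS_00231261. From E60 to E70 it was -1.46 for TCONS_00944375, -2.34 for TCONS_00590960, -1.34 for TCONS_00086741, -1.16 for TCONS_00592505, -1.28 for TCONS_00592510, -2.72 for TCONS_00232886, -1.29 for TCONS_00232887, -1.21 for TCONS_00937894, -0.78 for TCONS_00012412, -0.37 for TCONS_00753918 and -1.37 for TCONS_01148693. After median scaling, the change was 0.47 for TCONS_01113073 and 0.64 for TCONS_00592093 from E60 to E70, and -0.14 for TCONS_01091429 from E50 to E60.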
